A study of Homo sapiens with 8 samples.

Results

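The machinery that cuts nascent RNA and ends its synthesis was followed in a genome-wide CRISPRi growth screen through 35 genes, of 17547 genes tested. They are 24 listed genes of pre-mRNA cleavage and polyadenylation, of the Integrator complex and of the SOSS single-stranded DNA-binding complex, and the 11 genes of the file whose symbols start with INTS and a digit. They carried 176 of the 87897 sgRNAs of primary promoter sets with a mean count of at least 20 over the 8 libraries. All 35 passed that minimum, 34 of them with 5 sgRNAs and INTS7 with 6. Symbols are those of the sgRNA names. CPSF3L is now called INTS11, and ASUN is now INTS13.

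The cells were K562, a human leukemia line, carrying the transcriptional repressor dCas9-KRAB and stably expressing wild-type or mutant uL16, the ribosomal protein encoded by RPL10. The sgRNA library and the repressor are shared by every group, and the labels do not name the mutation or say whether the lines are clones. Wild-type cells at day 0, wild-type cells at day 9, mutant cells at day 0 and mutant cells at day 9 each had 2 libraries, with no treatment other than puromycin at 1 µg/ml for 3 days to select transduced cells. The labels do not say that the replicates came from separate transductions, so the p-values measure the spread between these libraries, which may be technical. Total counts ranged from 39233340 to 143585751 per library, and the median count of a member sgRNA ranged from 179.5 to 1103.

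In CRISPRi, the repressor is guided to a gene's start by an sgRNA and reduces its RNA, and cells with the sgRNA become rarer when the gene is needed for growth. Most pre-mRNAs are cut by the cleavage and polyadenylation complex, in which CPSF reads the polyadenylation signal and cuts, CstF and CFIm bind flanking sequence, and poly(A) polymerase adds the tail. Integrator is built around a related endonuclease and a bound PP2A phosphatase, and it cuts small nuclear RNAs and ends transcription at paused RNA polymerase II. An sgRNA readout measures growth of the cells and not RNA processing itself.

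Among these genes, the largest losses were in INTS2, CPSF1, INTS3 and INTS8, with log2 changes of -3.08 (SE 0.25), -3.02 (SE 0.14), -2.62 (SE 0.21) and -2.24 (SE 0.16) in wild-type cells. The log2 changes are those of counts summed over the sgRNAs of a gene, day 9 against day 0, fitted with edgeR. Where a pair of values stands without the lines named, the wild-type value comes first. In wild-type cells 18 of 35 genes fell at an adjusted p under 0.05 and 0 rose, where 9.28% of all genes tested fell and 0.986% rose. In mutant cells 18 fell and 1 rose, where 9.07% of all genes fell and 0.798% rose. At an unadjusted p under 0.05 there were 25 of 35 genes in wild-type cells, where 20.3% of all genes reached that, and 29 in mutant cells, where 18.1% did. DESeq2 called 22 lower and 1 higher in wild-type cells, where it called 11.5% of all genes lower and 3.97% higher, and 21 lower and 1 higher in mutant cells, where it called 10.9% and 2.51%. Falls beyond 1 on the log2 scale were seen for 10 of 35 genes in each line, where 3.34% of all genes reached this in wild-type and 3.39% in mutant cells. The median change of the 35 was -0.42 in wild-type and -0.40 in mutant cells, beside 0.01 over all genes in each line. In wild-type cells both day 9 libraries lay below both day 0 libraries for 29 of 35 genes, against 24.2% of all genes, and in mutant cells for 28 of 35, against 24.5%. Both lay above for 4 genes (22.9% of all genes) and 3 genes (23.8%) in that order.

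**Figure D1:**
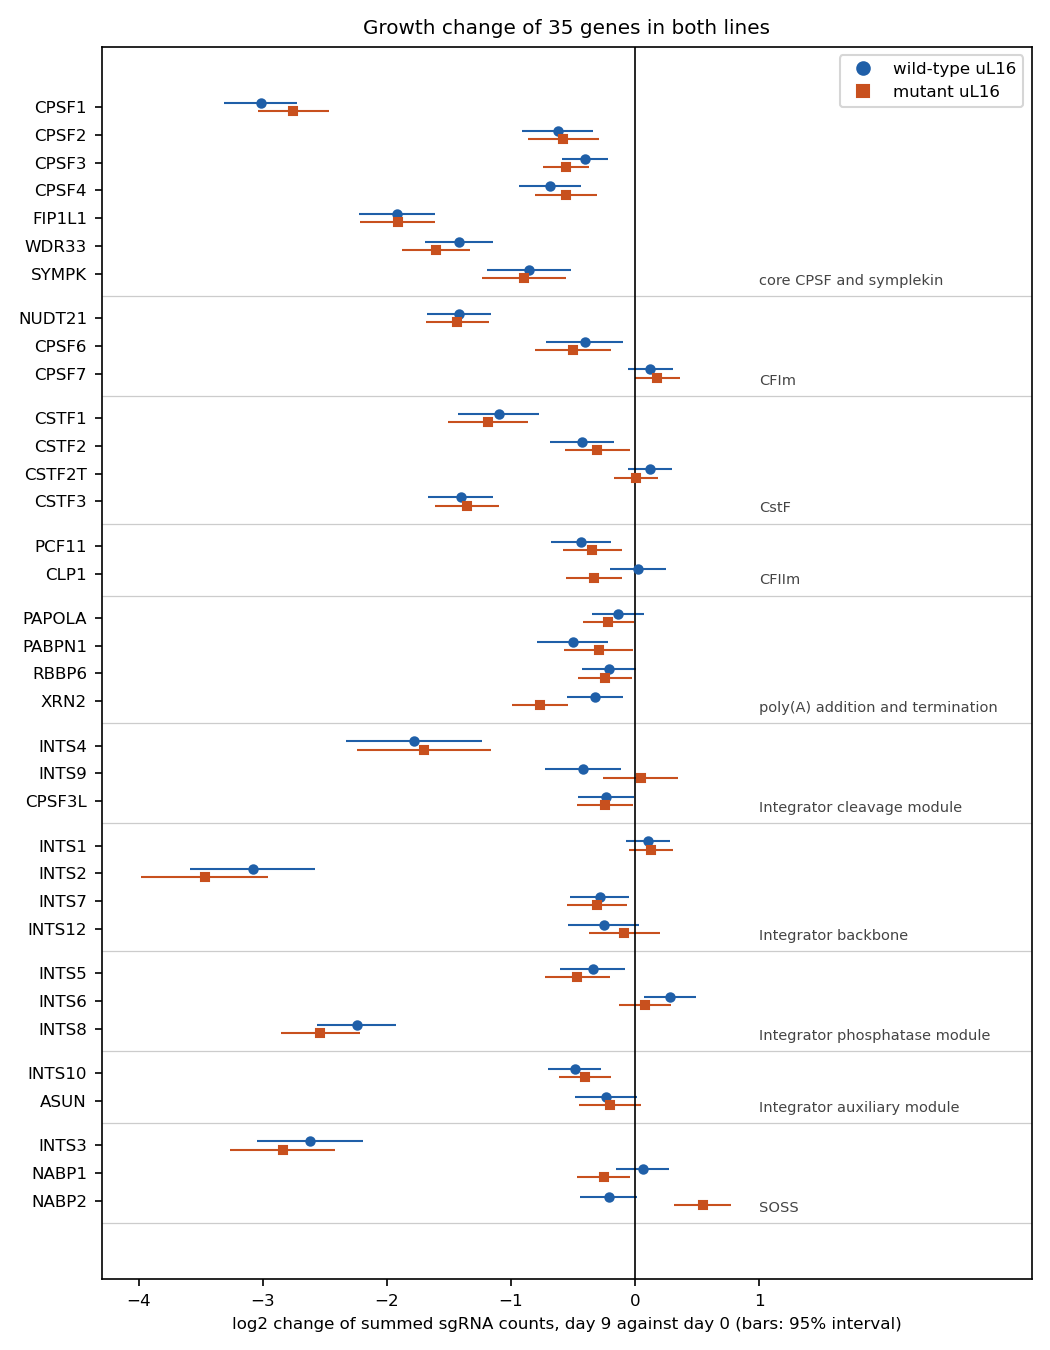
Log2 change of the summed sgRNA counts from day 0 to day 9 (x axis) for each of the 35 genes (rows, by role), in wild-type (circles) and mutant cells (squares), with 95% intervals of the fit from 2 libraries per group. CPSF1, INTS2, INTS3 and INTS8 lie below -2 in both lines, and NABP2 lies at -0.21 in wild-type and 0.55 in mutant cells.

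Promoter sequences are shown for 6 genes, since dCas9-KRAB is guided to a gene's start. For 4 of them all 5 sgRNAs were down in both lines (INTS2, INTS3, FIP1L1 and WDR33). For the other 2, INTS1 and INTS6, no sgRNA passed the test in either line. Each sequence is the 250 bases before the annotated start, on the gene's strand and 5′ to 3′, from RefSeq on GRCh38.p14. Capitals mark the GC box GGGCGG and the ETS-type core CCGGAA, searched on both strands. The sgRNA names place their sites on another build, so the sgRNAs were not placed in these windows.
INTS2, chr17:61927983-61928232, minus strand: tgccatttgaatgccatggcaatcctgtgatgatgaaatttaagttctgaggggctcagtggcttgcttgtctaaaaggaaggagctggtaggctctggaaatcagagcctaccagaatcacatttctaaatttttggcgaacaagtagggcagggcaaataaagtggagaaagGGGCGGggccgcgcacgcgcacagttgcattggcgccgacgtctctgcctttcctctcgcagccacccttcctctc
INTS3, chr1:153727800-153728049, plus strand: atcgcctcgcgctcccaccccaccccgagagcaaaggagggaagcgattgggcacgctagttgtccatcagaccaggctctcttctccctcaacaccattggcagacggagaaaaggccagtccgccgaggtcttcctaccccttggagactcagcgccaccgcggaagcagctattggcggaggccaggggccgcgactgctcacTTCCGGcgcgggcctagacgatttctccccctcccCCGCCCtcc
FIP1L1, chr4:53377391-53377640, plus strand: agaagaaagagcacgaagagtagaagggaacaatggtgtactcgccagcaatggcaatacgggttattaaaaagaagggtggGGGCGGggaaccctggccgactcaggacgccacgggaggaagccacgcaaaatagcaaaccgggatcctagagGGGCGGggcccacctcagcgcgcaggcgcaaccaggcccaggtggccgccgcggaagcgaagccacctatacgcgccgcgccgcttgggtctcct
WDR33, chr2:127811172-127811421, minus strand: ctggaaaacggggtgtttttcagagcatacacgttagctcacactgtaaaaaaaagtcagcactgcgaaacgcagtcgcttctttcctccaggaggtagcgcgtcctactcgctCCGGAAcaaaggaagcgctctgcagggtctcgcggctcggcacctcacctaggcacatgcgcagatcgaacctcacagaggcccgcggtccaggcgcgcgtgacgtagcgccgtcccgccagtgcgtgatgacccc
INTS1, chr7:1504390-1504639, minus strand: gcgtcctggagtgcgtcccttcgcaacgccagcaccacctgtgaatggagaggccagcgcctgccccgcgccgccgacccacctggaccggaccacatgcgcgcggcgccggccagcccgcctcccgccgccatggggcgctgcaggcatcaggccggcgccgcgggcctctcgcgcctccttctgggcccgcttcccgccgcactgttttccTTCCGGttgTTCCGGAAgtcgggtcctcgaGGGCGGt
INTS6, chr13:51453037-51453286, minus strand: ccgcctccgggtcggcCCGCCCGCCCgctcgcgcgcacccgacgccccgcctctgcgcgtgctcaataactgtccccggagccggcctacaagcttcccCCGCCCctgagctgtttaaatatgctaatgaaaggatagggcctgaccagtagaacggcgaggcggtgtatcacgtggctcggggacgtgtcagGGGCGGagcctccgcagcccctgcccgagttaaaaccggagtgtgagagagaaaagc
Windows were matched for 30 of the 35 genes, all but CPSF1, INTS5, INTS8, INTS9 and INTS10. The GC box was in 21 of the 30 windows, against 42.3% of the windows of 27305 genes of all kinds, and CCGGAA in 13, against 14.8%. The median G and C content was 63.4% in the 30 windows and 58.0% in all windows. Both letter strings occur among the genes that fell and the genes that did not: INTS6, at 0.28 in wild-type cells, holds 4 GC boxes, and WDR33, at -1.42, holds no GC box.

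The core of CPSF with symplekin was the role in which every gene fell in both lines, 7 of 7. CPSF1, the scaffold of the signal-reading module, had 70.3 and 64.8 CPM (the summed counts of a gene scaled to the effective library size of the gene sums) on day 0 of the wild-type line, then 7.86 and 8.82 on day 9. Mutant cells had 62.7 and 65.0 CPM, then 10.8 and 8.37. The day 9 libraries of both lines thus lay far below every day 0 library, a fall of 3.02 (SE 0.14) in wild-type and of 2.75 (SE 0.14) in mutant cells on the log2 scale, with 5 of 5 sgRNAs down in each. FIP1L1, which links CPSF to poly(A) polymerase, went from 60.6 and 48.6 CPM to 16.3 and 12.6 in wild-type cells. Mutant cells went from 57.5 and 56.4 CPM to 17.1 and 13.3. Its log2 change was -1.92 (SE 0.15) and -1.91 (SE 0.15) in wild-type and mutant cells, with no overlap between days.

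WDR33, which contacts the polyadenylation signal, fell, with changes of -1.42 (SE 0.13) in wild-type and -1.60 (SE 0.13) in mutant cells. Symplekin, SYMPK, the scaffold that joins the cleavage module to the rest, fell, with changes of -0.85 (SE 0.17) and -0.89 (SE 0.17) in that order. Of its 5 sgRNAs, 2 passed alone in each line. The third had -0.95 in wild-type and 2.18 in mutant cells and passed in neither. With limma on the mean log2 CPM of its sgRNAs, SYMPK had -1.89 (adjusted p = 8.65e-06) and -0.85 (adjusted p = 0.00351). CPSF4, the zinc-finger partner of WDR33 in signal binding, fell, with changes of -0.68 (SE 0.12) and -0.56 (SE 0.12). In each line 1 of its 5 sgRNAs passed the test alone, the same one, at -3.58 and -3.66. The others of CPSF4 lay between -1.28 and -0.02 in wild-type and between -0.21 and 0.40 in mutant cells. CPSF2, the inactive relative of the endonuclease, fell, with changes of -0.62 (SE 0.14) and -0.58 (SE 0.14). The sgRNAs of CPSF2 lie within 1 kb of those of NDUFB1, a complex I subunit. The summed changes of NDUFB1 were -0.22 (SE 0.08) in each line and did not pass the test. In each line 1 sgRNA of NDUFB1 was called lower alone, and its lowest sgRNA values were -1.92 and -1.79. Calls of 3 of these genes were lost when 1 library was left out, which also lowers the precision of the fit. CPSF2 had -0.43 (adjusted p = 0.184) in wild-type cells without wild-type day 0 replicate 2 and -0.56 (adjusted p = 0.0501) in mutant cells without mutant day 0 replicate 1. SYMPK had -0.64 (adjusted p = 0.0606) in wild-type cells without wild-type day 0 replicate 2, and CPSF4 had -0.44 (adjusted p = 0.054) in mutant cells without mutant day 9 replicate 2.

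CPSF3, the endonuclease that makes the cut, had the smallest change of the 7 in each line. It had 89.4 and 86.5 CPM at day 0 and 70.6 and 62.2 at day 9 in wild-type cells, and 88.1 and 88.3 against 56.7 and 63.3 in mutant cells. The days did not overlap in either line, and the log2 changes were -0.41 (SE 0.09) and -0.55 (SE 0.09). In wild-type cells 1 of its 5 sgRNAs passed the test alone, and without its most abundant sgRNA the change was -0.19 (adjusted p = 0.365). Its sgRNAs lie within 1 kb of those of ITGB1BP1, whose own had changes of -0.11 (SE 0.10) and -0.02 (SE 0.10). CPSF3L, the related endonuclease of Integrator, had 49.6 and 51.6 CPM against 39.9 and 46.3 in wild-type cells. Mutant cells had 56.2 and 53.6 CPM against 44.1 and 48.6. Its summed log2 changes of -0.23 (SE 0.11, adjusted p = 0.232) and -0.24 (SE 0.11, adjusted p = 0.222) did not pass, although the days did not overlap. With limma on the mean log2 CPM of its sgRNAs, CPSF3L passed as lower in both lines (-0.71, adjusted p = 0.0352, and -0.90, adjusted p = 0.00935).

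CFIm, which binds upstream of the cut and influences which site is used, split by subunit. NUDT21, its RNA-binding subunit, had 54.4 and 56.1 CPM at day 0 in wild-type cells, then 21.1 and 20.2 at day 9. The mutant libraries had 56.9 and 51.5 CPM, then 19.9 and 20.2. It fell, with changes of -1.42 (SE 0.13) and -1.43 (SE 0.13), with 4 of 5 sgRNAs down in each line, and the libraries of the 2 days were well apart. The sgRNAs of OGFOD1, within 1 kb of these, had changes of 0.04 (SE 0.10) and -0.17 (SE 0.10).

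CPSF6 and CPSF7 encode alternative large subunits of CFIm. CPSF6 had 34.1 and 37.0 CPM at day 0 and 22.7 and 31.0 at day 9 in wild-type cells, a change of -0.40 (SE 0.15) that did not pass (adjusted p = 0.0927). In mutant cells it had 39.5 and 37.7, then 30.8 and 23.9, a fall of 0.50 (SE 0.15, adjusted p = 0.0242). That call was lost without mutant day 0 replicate 1 (-0.47, adjusted p = 0.204), mutant day 0 replicate 2 (-0.53, adjusted p = 0.0985) or mutant day 9 replicate 2 (-0.32, adjusted p = 0.321), and the wild-type change passed without wild-type day 9 replicate 2 (-0.65, adjusted p = 0.00628), without its most abundant sgRNA (-0.59, adjusted p = 0.0268) and with limma on sgRNA means (-0.80, adjusted p = 0.000924). CPSF7 had 70.1 and 71.3 CPM at day 0 and 74.1 and 80.1 at day 9 in wild-type cells, and 76.2 and 79.0, then 82.1 and 93.7, in mutant cells. Its day 9 libraries all lay above day 0, but the changes of 0.13 (SE 0.09) and 0.18 (SE 0.09) did not pass.

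In CstF, which binds downstream of the cut, 2 of 4 genes fell in both lines. CSTF3, the scaffold subunit, had 69.3 and 59.1 CPM at day 0 in wild-type cells, then 27.6 and 20.9 at day 9. The mutant libraries had 60.5 and 64.4 CPM, then 24.2 and 24.7. The change was -1.41 (SE 0.13) and -1.35 (SE 0.13), with 5 of 5 sgRNAs down in each line and no overlap between days. CSTF1, the WD-repeat subunit, had 36.8 and 39.1 CPM, then 17.6 and 17.9, in wild-type cells, and 42.9 and 41.7, then 14.5 and 22.2, in mutant cells. It fell, with changes of -1.10 (SE 0.16) and -1.19 (SE 0.16), again with separate days. The sgRNAs of CSTF1 lie within 1 kb of those of AURKA, which encodes the mitotic kinase Aurora A and fell, with changes of -1.56 (SE 0.16) in wild-type and -1.82 (SE 0.16) in mutant cells, so repression of CSTF1 and of AURKA cannot be told apart here.

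The RNA-binding subunit of CstF has a pair of genes. CSTF2 had 51.0 and 49.4 CPM at day 0 and 43.3 and 31.4 at day 9 in wild-type cells, and 43.6 and 45.7, then 37.6 and 35.0, in mutant cells. It fell by 0.43 (SE 0.13, adjusted p = 0.024) in wild-type cells and had a change of -0.30 (SE 0.13, adjusted p = 0.172) in mutant cells. No sgRNA of CSTF2 passed alone, and the wild-type call was lost without wild-type day 0 replicate 1 (adjusted p = 0.191), wild-type day 0 replicate 2 (adjusted p = 0.12) or wild-type day 9 replicate 2 (adjusted p = 0.351), at -0.40, -0.45 and -0.22. CSTF2T, the autosomal copy, had 75.5 and 69.6 CPM, then 76.4 and 81.3, in wild-type cells, and 74.7 and 73.1, then 76.0 and 72.9, in mutant cells. Its changes of 0.12 (95% interval -0.06 to 0.30) and 0.01 (SE 0.09) did not pass, and in mutant cells the days overlapped.

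With summed counts none of the genes that act at the tail and at the polymerase fell beyond 1 on the log2 scale. Neither did CPSF2, CPSF3, CPSF4 or SYMPK of the CPSF core. PCF11 of CFIIm, which binds the tail domain of RNA polymerase II, had 50.6 and 47.5 CPM at day 0 and 40.1 and 32.7 at day 9 in wild-type cells, and 48.4 and 51.3, then 39.4 and 39.3, in mutant cells. It fell by 0.43 (SE 0.12, adjusted p = 0.0122) in wild-type cells and had -0.34 (SE 0.12, adjusted p = 0.0641) in mutant cells. The wild-type call was lost without wild-type day 0 replicate 1 (-0.39, adjusted p = 0.166), wild-type day 0 replicate 2 (-0.48, adjusted p = 0.0515) or wild-type day 9 replicate 2 (-0.29, adjusted p = 0.167), and the mutant change passed without the most abundant sgRNA (-0.62, adjusted p = 0.00268) and in DESeq2 (-0.34, adjusted p = 0.0127). PABPN1, the nuclear poly(A)-binding protein, had 39.6 and 36.2 CPM, then 24.6 and 28.9, in wild-type cells, a fall of 0.50 (SE 0.14, adjusted p = 0.0133). In mutant cells PABPN1 had 40.9 and 41.8, then 29.0 and 38.3, a change of -0.29 (SE 0.14, adjusted p = 0.248). That change passed with limma on sgRNA means (-0.85, adjusted p = 0.00157). There 1 sgRNA passed alone, at -3.93, with counts going from 171 and 431 to 10 and 12. The others lay between -0.45 and 0.30, and no sgRNA of PABPN1 passed alone in wild-type cells. Without wild-type day 0 replicate 1 or wild-type day 9 replicate 1, the wild-type value was -0.44 (adjusted p = 0.191) or -0.39 (adjusted p = 0.116). PAPOLA, the poly(A) polymerase, had -0.14 (SE 0.10) and -0.21 (SE 0.10), and RBBP6, an activator of cleavage, had -0.21 (SE 0.11) and -0.24 (SE 0.11). Neither passed in a line.

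XRN2 and CLP1 had the second and the third smallest p among the 35 genes in the test of the difference between lines. XRN2, the exonuclease that degrades the RNA downstream of the cut, had 63.1 and 56.9 CPM at day 0 in wild-type cells, then 43.5 and 52.7 at day 9. The mutant libraries had 63.7 and 62.2 CPM, then 38.7 and 35.6. The mutant day 9 libraries were the lowest of the 8, and XRN2 fell by 0.76 (SE 0.11, adjusted p = 2.13e-06) in mutant cells, against -0.32 (SE 0.11, adjusted p = 0.0642) in wild-type cells. The difference, mutant minus wild-type, was -0.44 (SE 0.16), lower in mutant cells for 4 of 5 sgRNAs, with an unadjusted p of 0.00788 and an adjusted p of 0.865, so it did not pass. In wild-type cells XRN2 passed in DESeq2 (-0.32, adjusted p = 0.0196), without wild-type day 9 replicate 2 (-0.47, adjusted p = 0.00891) and without either mutant day 9 library (-0.32 each, adjusted p = 0.0485 and 0.0476).

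CLP1, an RNA kinase of CFIIm that also works in tRNA splicing, had 56.5 and 46.6 CPM, then 50.6 and 54.3, in wild-type cells, where the days overlapped. In mutant cells it had 59.6 and 55.6, then 47.4 and 44.4. Its changes were 0.02 (SE 0.11) and -0.33 (SE 0.11, adjusted p = 0.0539), with a difference of -0.35 (SE 0.16, unadjusted p = 0.0308, adjusted p = 0.865). A single sgRNA of CLP1, with -3.17 (SE 0.47) in wild-type and -3.73 (SE 0.48) in mutant cells, passed the test in both lines, while the other 4 lay between -0.01 and 0.46 in wild-type cells. The mutant change of CLP1 passed without its most abundant sgRNA (-0.55, adjusted p = 0.00189), in DESeq2 (-0.33, adjusted p = 0.0141), with limma on sgRNA means (-0.83, adjusted p = 0.00103) and without wild-type day 9 replicate 1 (adjusted p = 0.0305) or 2 (adjusted p = 0.0308), at -0.33 each.

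In wild-type cells Integrator ranged from INTS2 at -3.08 to INTS6 at 0.28, near the range of the cleavage and polyadenylation genes, -3.02 to 0.13. Of the 13 Integrator subunits here, 5 fell in wild-type and 6 in mutant cells, and the 5 were among the 6. The scaffold and its partners are described first. INTS2, a backbone subunit, had 32.0 and 31.3 CPM at day 0 and 3.62 and 3.84 at day 9 in wild-type cells, and 33.0 and 29.1, then 3.91 and 2.02, in mutant cells. The log2 changes were -3.08 (SE 0.25) and -3.47 (SE 0.25), falls of 8.48-fold and 11.1-fold, with 5 of 5 sgRNAs called lower one by one in each line. It held rank 44 from the lowest of 17547 genes in wild-type and rank 32 in mutant cells. INTS7, also of the backbone, had 48.8 and 48.1 CPM, then 40.3 and 39.2, in wild-type cells and 48.1 and 44.5, then 34.2 and 40.5, in mutant cells. Its changes of -0.28 (SE 0.12) and -0.31 (SE 0.12) did not pass, although the days did not overlap. The sgRNAs of INTS7 lie within 1 kb of those of DTL, and 1 of the 6 is shared with it. DTL encodes a cell-cycle ubiquitin ligase adaptor and had -0.42 (SE 0.13) in wild-type and -0.32 (SE 0.13) in mutant cells.

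INTS1, the largest subunit, had changes of 0.11 (SE 0.09) and 0.13 (SE 0.09), with 1 of 5 sgRNAs down in each line, and INTS12, a small PHD-finger subunit, had -0.25 (SE 0.14) and -0.09 (SE 0.14). Neither passed. INTS8, which anchors the PP2A phosphatase, had 51.8 and 46.7 CPM at day 0 and 9.17 and 11.6 at day 9 in wild-type cells, and 49.5 and 54.2, then 9.80 and 8.23, in mutant cells. Its log2 changes were -2.24 (SE 0.16) and -2.54 (SE 0.16), with all sgRNAs called lower in each line. INTS6, a neighbour of INTS8 in the phosphatase module, had 51.6 and 53.4 CPM, then 67.7 and 60.2, in wild-type cells and 65.9 and 58.4, then 69.7 and 61.8, in mutant cells. All 5 sgRNAs of INTS6 were up in wild-type cells, but the change of 0.28 (SE 0.10) did not pass (adjusted p = 0.0793), and in mutant cells it was 0.08 (SE 0.10) with overlapping days. It passed without wild-type day 9 replicate 2 (0.36, adjusted p = 0.0345) and in DESeq2 (0.29, adjusted p = 0.0209). INTS5 of the same module had -0.34 (SE 0.13, adjusted p = 0.10) in wild-type cells and fell by 0.47 (SE 0.13, adjusted p = 0.0131) in mutant cells. The wild-type change of INTS5 passed in DESeq2 (-0.34, adjusted p = 0.0258), without its most abundant sgRNA (-0.51, adjusted p = 0.0292) and with limma on sgRNA means (-0.94, adjusted p = 0.00021). The mutant call of INTS5 was lost without mutant day 0 replicate 1 (-0.39, adjusted p = 0.265) or mutant day 9 replicate 2 (-0.36, adjusted p = 0.169).

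In the cleavage module, INTS4, the scaffold that holds the endonuclease pair, had 25.5 and 22.2 CPM at day 0 in wild-type cells, then 9.35 and 4.55 at day 9. The mutant libraries had 27.5 and 26.9 CPM, then 11.2 and 5.99. It fell, with changes of -1.78 (SE 0.27) and -1.70 (SE 0.26), with 5 of 5 sgRNAs down in each line. The rarest of these sgRNAs went from 76 and 23 counts to 0 and 1 in wild-type cells and from 55 and 128 to 0 and 1 in mutant cells. INTS9, the inactive partner of the endonuclease, had 27.8 and 36.0 CPM, then 21.7 and 26, in wild-type cells and 35.0 and 31.7, then 36.5 and 32.5, in mutant cells. Its summed changes were -0.42 (SE 0.15, adjusted p = 0.0735) and 0.05 (SE 0.15, adjusted p = 0.926), and the mutant days overlapped. The wild-type change passed in DESeq2 (-0.42, adjusted p = 0.0306) and without wild-type day 0 replicate 1 (-0.60, adjusted p = 0.035) or wild-type day 9 replicate 2 (-0.56, adjusted p = 0.0281).

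Of the auxiliary module, INTS10 had 62.0 and 68.4 CPM at day 0 and 46.4 and 46.6 at day 9 in wild-type cells, and 64.0 and 68.5, then 53.8 and 46.8, in mutant cells. It fell by 0.49 (SE 0.11, adjusted p = 0.000871) and by 0.40 (SE 0.10, adjusted p = 0.0067). Without its most abundant sgRNA the changes were -0.11 (adjusted p = 0.741) and -0.10 (adjusted p = 0.802). The call was also lost without wild-type day 0 replicate 2 in wild-type cells (-0.41, adjusted p = 0.0535) and without mutant day 0 replicate 2 (-0.35, adjusted p = 0.164) or mutant day 9 replicate 2 (-0.30, adjusted p = 0.143) in mutant cells. ASUN, of the same module, had 53.6 and 42.9 CPM, then 41.3 and 40.8, in wild-type cells and 46.7 and 50.8, then 38.4 and 46.1, in mutant cells. Its changes of -0.23 (SE 0.12) and -0.20 (SE 0.12) did not pass, except in wild-type cells without its most abundant sgRNA (-0.51, adjusted p = 0.0229).

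The SOSS complex pairs INTS3 with the single-stranded DNA-binding proteins NABP2 or NABP1 and works in the repair of broken DNA. INTS3 also belongs to Integrator. It had 32.4 and 34.6 CPM at day 0 and 4.32 and 6.59 at day 9 in wild-type cells, and 35.1 and 33.5, then 4.74 and 4.81, in mutant cells. The change was -2.62 (SE 0.21) and -2.84 (SE 0.21), 6.13-fold and 7.17-fold, with 5 of 5 sgRNAs down in each line. NABP1 had 65.3 and 62.4 CPM, then 58.3 and 74.9, in wild-type cells, where the days overlapped, and 65.3 and 72.0, then 56.6 and 58.7, in mutant cells. Its changes of 0.06 (SE 0.11) and -0.25 (SE 0.10) did not pass, although 1 of its sgRNAs passed as higher in wild-type cells alone (1.14). Their difference was -0.31 (SE 0.15, unadjusted p = 0.0435, adjusted p = 0.874).

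NABP2 was the gene that rose in mutant cells. It had 45.6 and 48.5 CPM at day 0 and 37.3 and 44.0 at day 9 in wild-type cells, and 40.7 and 42.5, then 59.6 and 61.8, in mutant cells. Day 9 lay below day 0 in wild-type cells and above it in mutant cells, without overlap in either. The changes were -0.21 (SE 0.11, adjusted p = 0.304) and 0.55 (SE 0.11, adjusted p = 0.000452), the second with 5 of 5 sgRNAs up. In wild-type cells NABP2 passed as lower with limma on sgRNA means (-0.57, adjusted p = 0.0376) and without its most abundant sgRNA (-0.58, adjusted p = 0.00417). The difference between lines was 0.76 (95% interval 0.43 to 1.08), positive for 4 of 5 sgRNAs, with an unadjusted p of 3.69e-05 and an adjusted p of 0.0924. It did not pass in edgeR or with limma on sgRNA means (1.24, adjusted p = 0.196). It passed in DESeq2 (0.76, adjusted p = 0.000137), without the most abundant sgRNA of each gene (1.31, adjusted p = 0.00123) and without wild-type day 9 replicate 2 (0.88, adjusted p = 0.0277). Over 18 other settings the difference stayed positive, from 0.45 to 1.31, with adjusted p from 0.000137 to 1.00.

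A single sgRNA of NABP2, the third in the file's order, passed as higher in mutant cells by itself (1.02, SE 0.20, adjusted p = 0.000815). CPM of single sgRNAs are scaled to all sgRNAs kept, controls and second promoters included, so the gene value is 1.22 to 1.23 times the sum of its sgRNAs' values. The third sgRNA had 14.4 and 13.2 CPM at day 0 and 9.86 and 7.77 at day 9 in wild-type cells, and 9.63 and 10.4, then 17.1 and 23.4, in mutant cells. Its day 0 levels were thus lower in mutant than in wild-type cells, and its day 9 levels higher. A second promoter set of 5 sgRNAs exists for NABP2, of the 35 genes, and gave 0.16 (SE 0.11, adjusted p = 0.658) in wild-type and 0.34 (SE 0.11, adjusted p = 0.256) in mutant cells, adjusted over the 1395 genes with such a set. The difference at that promoter was 0.19 (SE 0.15, adjusted p = 0.93).

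**Figure D2:**
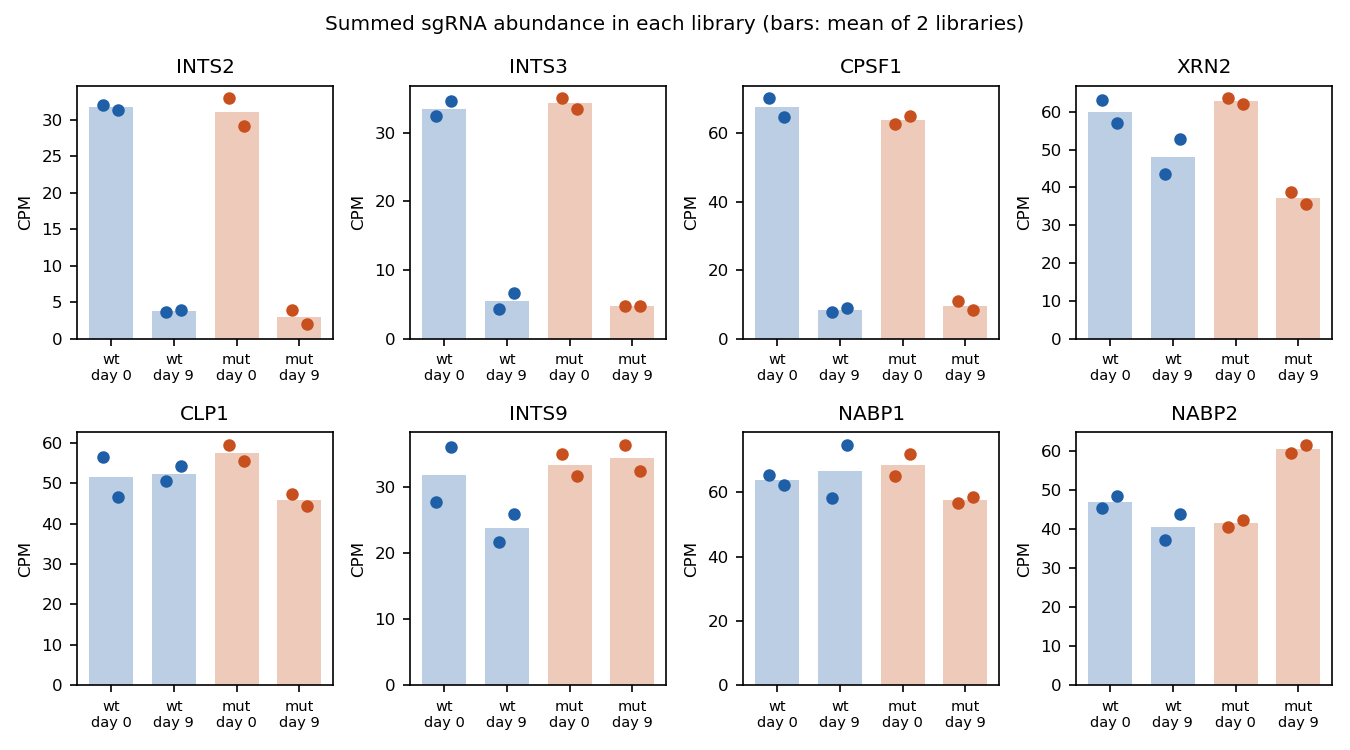
CPM of the summed sgRNAs (y axis, from 0) of 8 genes in each library, by line and day, with points for the 2 libraries of a group and bars for their mean. INTS2, INTS3 and CPSF1 drop in both lines, the 2 mutant day 9 libraries of XRN2 lie lowest of its 8, and NABP2 reaches 59.6 and 61.8 at day 9 in mutant cells.

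No gene of the 35 passed in the difference between lines with edgeR, where 0.0171% of all genes were lower and 0.0% higher in mutant cells. At an unadjusted p under 0.05 there were 5 of 35, namely NABP2, XRN2, CLP1, INTS9 and NABP1, where 5.68% of all genes reached that. INTS9 had a difference of 0.47 (SE 0.21, unadjusted p = 0.0338, adjusted p = 0.865). DESeq2 called 1 of the 35, NABP2. For 33 of the 35 genes the 95% interval of the difference lay within 1 on the log2 scale of 0, for 29 within 0.75 and for 18 within 0.5. The intervals of INTS2 (-1.07 to 0.30) and NABP2 (0.43 to 1.08) did not. Across the 35 genes, which are not replicates, the changes in the lines correlated at 0.971 by Pearson and 0.898 by Spearman, given as a description. The 2 changes share no library, and they share the sgRNAs. Of the 18 genes called lower in each line, 15 were the same (83.3%), close to the share over all genes called lower, 80.7% of those in wild-type and 82.6% of those in mutant cells.

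**Figure D3:**
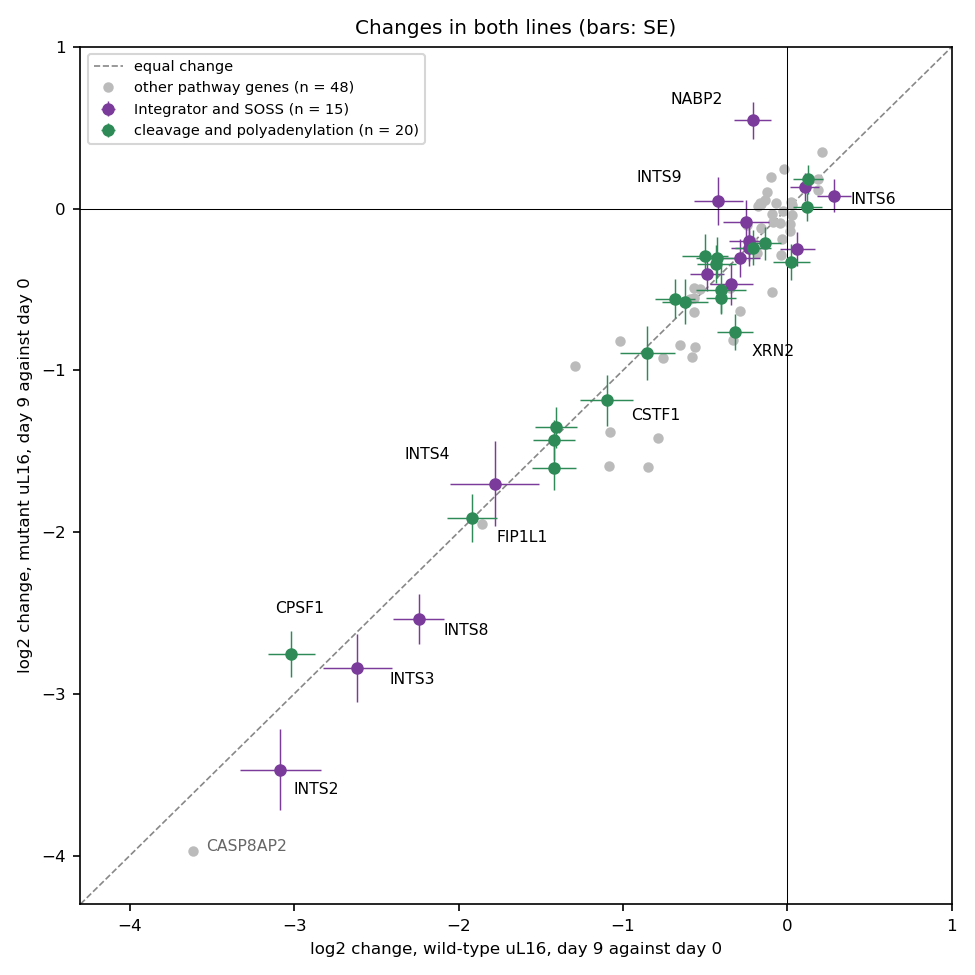
Log2 change in mutant cells (y axis) against wild-type cells (x axis) for 15 Integrator and SOSS genes, 20 cleavage and polyadenylation genes and 48 other pathway genes, with bars of 1 SE for the first 35. Most genes lie along the line of equal change, and NABP2 lies above it at -0.21 and 0.55.

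The sgRNAs of a gene differed widely, and the summed counts hid part of this. Of the 176 member sgRNAs, 57 passed as lower in wild-type and 62 in mutant cells, where 5.12% and 5.0% of all sgRNAs did. Of 1894 non-targeting control sgRNAs, measured the same way, 11 (0.581%) and 10 (0.528%) passed as lower. Falls beyond 1 on the log2 scale were seen for 34.7% of member sgRNAs, 6.67% of all primary-promoter sgRNAs and 1.32% of controls in wild-type cells, and for 35.2%, 6.47% and 1.16% in mutant cells. The median distance between the highest and the lowest sgRNA of a gene was 2.40 in wild-type cells. The median change was -0.47 for the 101 member sgRNAs named with a plus strand and -0.48 for the 75 with a minus strand in wild-type cells.

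At least 1 sgRNA passed as lower for 23 of the 35 genes in wild-type cells, where 16.0% of all genes had 1, and for 24 in mutant cells, where 15.2% did. Among these, CLP1, INTS9, CPSF3L, INTS7, ASUN and RBBP6 did not pass with summed counts in either line. ASUN had 1 sgRNA called lower in wild-type cells alone, and RBBP6 had 1 in mutant cells alone (-1.05). INTS9 had sgRNAs at -3.67 and -2.52 in wild-type cells and -4.99 and -2.34 in mutant cells, beside 3 others from -0.40 to 0.31 and from 0.17 to 0.64. CPSF3L had 1 sgRNA at -3.01 and -3.03, INTS7 had 1 at -4.08 and -4.45 beside a second called lower in mutant cells alone (-0.88), and INTS5, the phosphatase-module subunit, had 1 at -4.49 and -5.07. Each of these was called lower in both lines. With limma on the mean log2 CPM of the sgRNAs, which weights each sgRNA alike, INTS9 had -1.25 (adjusted p = 0.000114) and -1.13 (adjusted p = 0.000244), and INTS7 had -0.79 (adjusted p = 0.000252) and -0.76 (adjusted p = 0.000324). By it 22 of the 35 genes fell in each line, where 11.2% of all genes fell in wild-type and 10.6% in mutant cells. It also lost calls, of CPSF3 (-0.30, adjusted p = 0.155) and CSTF2 (-0.42, adjusted p = 0.109) in wild-type cells and of INTS10 in wild-type (-0.74, adjusted p = 0.0696) and mutant cells (-0.56, adjusted p = 0.215). For CPSF7, CSTF2, CSTF2T, PAPOLA, INTS1, INTS6, INTS12, NABP1 and NABP2 no sgRNA passed as lower in either line.

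**Figure D4:**
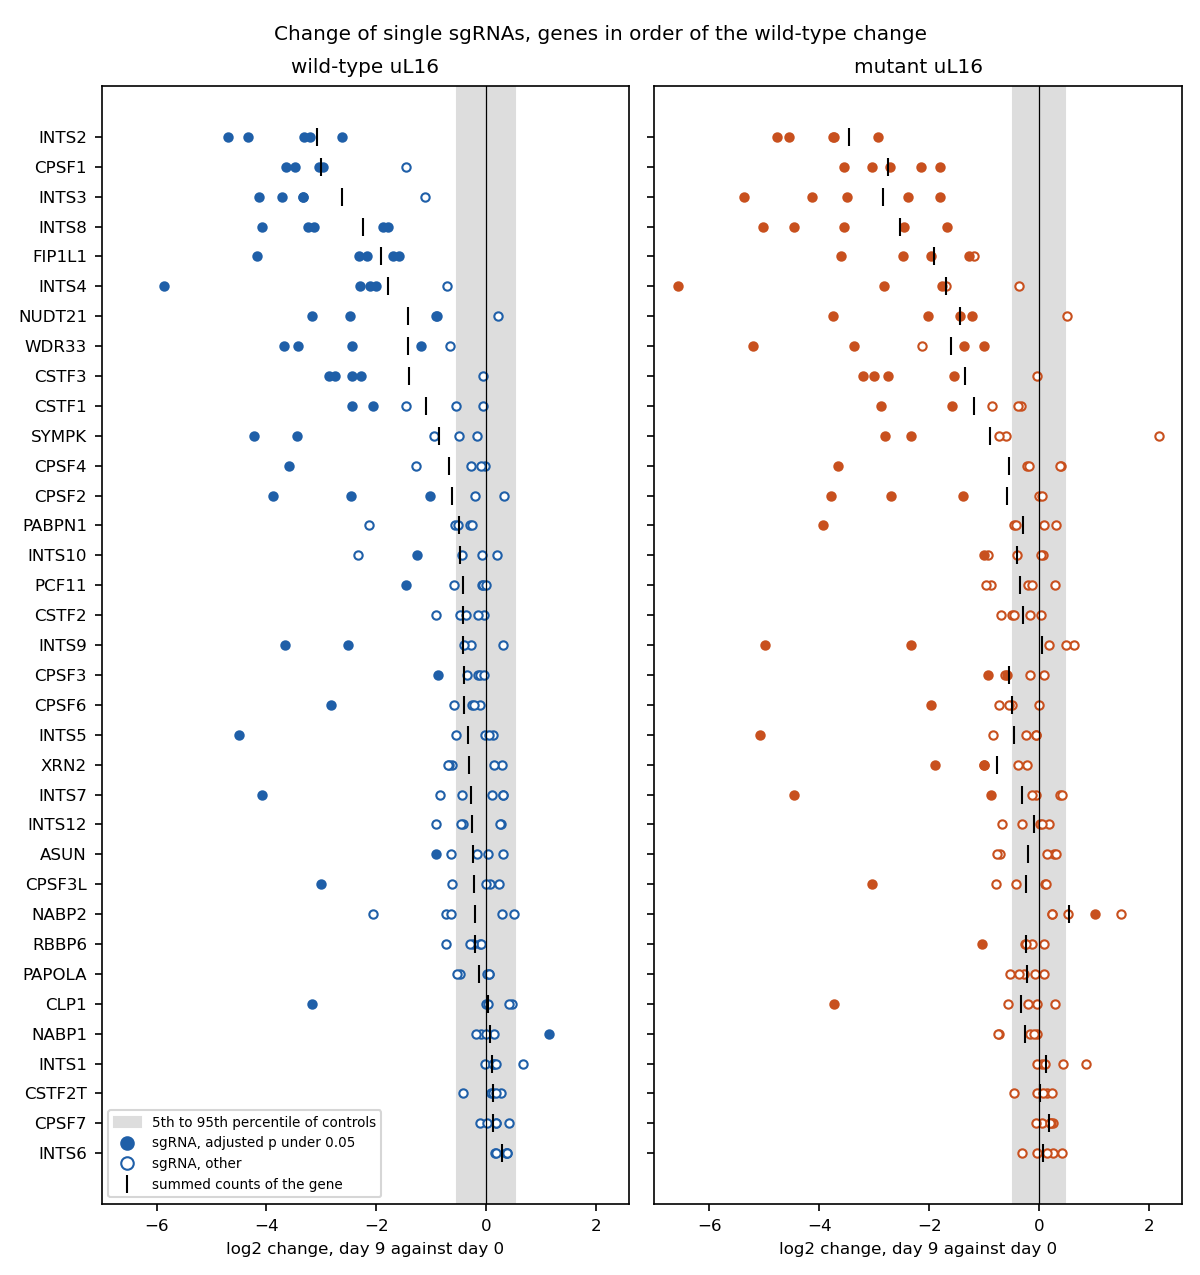
Log2 change of each member sgRNA (points, filled at an adjusted p under 0.05) and of the summed counts (vertical ticks) in wild-type (left) and mutant cells (right), by gene in order of the wild-type change, over the 5th to 95th percentile of the control sgRNAs (grey). All sgRNAs of INTS2 and INTS8 passed in both lines. INTS9 had 2 and INTS7, INTS5, CPSF3L, CLP1, CPSF4 and PABPN1 each had 1 sgRNA below -2 in both lines.

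For 10 of the 35 genes, other genes have sgRNAs within 1 kb, and such sgRNAs can repress both. Besides NDUFB1, ITGB1BP1, OGFOD1, AURKA and DTL, the neighbours were SDHAF2 (for CPSF7), HMBOX1 (INTS9), GLTPD1 (CPSF3L), GSTCD (INTS12) and FGFR1OP2 (ASUN). None of these 5 passed the test in a line, with changes from -0.16 to 0.15. AURKA was the neighbour that fell in both lines, and DTL fell in wild-type cells (adjusted p = 0.0322). HMBOX1 had 0.10 (SE 0.11) and -0.13 (SE 0.11), with 1 of its sgRNAs called lower alone in mutant cells.

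Other genes of these pathways were taken from lists and described by count. Of 6 genes that work with Integrator or SOSS, 4 fell in wild-type and 5 in mutant cells, with medians of -0.58 and -0.73. Over all genes tested, 9.28% and 9.07% fell in that order. PPP2R1A, the scaffold of PP2A, fell, with changes of -1.86 (SE 0.11) and -1.95 (SE 0.11), and VWA9, now INTS14 and a partner of INTS10 and ASUN, fell, with changes of -1.08 (SE 0.15) and -1.38 (SE 0.15). PPP2CA, the catalytic subunit of PP2A, fell, with changes of -0.57 (SE 0.11) and -0.64 (SE 0.10). C7orf26, now INTS15, fell, with changes of -0.59 (SE 0.15) and -0.56 (SE 0.15). INIP, the small subunit of SOSS, had -0.33 (SE 0.13, adjusted p = 0.112) in wild-type cells and fell by 0.81 (SE 0.13) in mutant cells, and DDX26B, a relative of INTS6, had 0.02 (SE 0.10) and -0.10 (SE 0.10).

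Small nuclear RNAs are the main RNA products of Integrator. Of 13 genes for their transcription and maturation, 2 fell in wild-type and 4 in mutant cells (medians -0.09 and -0.08). The shares over all genes were 9.28% and 9.07%. ZC3H8, of the little elongation complex, fell, with changes of -0.85 (SE 0.15) and -1.60 (SE 0.15). The difference of -0.75 (SE 0.21) had an unadjusted p of 0.000973 and did not pass (adjusted p = 0.565). PHAX, the export adaptor of these RNAs, fell, with changes of -1.02 (SE 0.13) and -0.82 (SE 0.13). KIAA0947, also of the little elongation complex, had -0.29 (SE 0.11, adjusted p = 0.119) in wild-type cells and fell by 0.63 (SE 0.11) in mutant cells.

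Histone mRNAs are cut at the 3′ end by CPSF subunits without polyadenylation. Of 6 genes listed for them, 2 fell in wild-type and 3 in mutant cells (medians -0.27 and -0.37), beside 9.28% and 9.07% of all genes. CASP8AP2, a component of histone locus bodies, had log2 changes of -3.62 (SE 0.38) and -3.97 (SE 0.39), and NPAT, the activator of histone gene transcription, fell, with changes of -1.29 (SE 0.21) and -0.97 (SE 0.20). LSM10, of the U7 small nuclear ribonucleoprotein, had -0.35 (SE 0.13, adjusted p = 0.107) in wild-type cells and fell by 0.49 (SE 0.13) in mutant cells. SLBP, LSM11 and ZNF473 passed in neither line, with wild-type changes of -0.03, -0.20 and -0.07 and mutant changes of -0.01, -0.25 and 0.04.

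Of 23 factors associated with 3′ ends, the cap or termination, 9 fell in wild-type and 10 in mutant cells (medians -0.19 and -0.20), and 1 rose in mutant cells. Among all genes 9.28% and 9.07% fell, and 0.798% rose in mutant cells. NCBP2, the cap-binding subunit, fell, with changes of -1.09 (SE 0.14) and -1.59 (SE 0.14). WDR82, which joins a phosphatase complex and histone methyltransferases at the polymerase, fell, with changes of -0.78 (SE 0.14) and -1.42 (SE 0.14), with a difference of -0.63 (SE 0.19, unadjusted p = 0.00216, adjusted p = 0.693). PPP1R10, the targeting subunit of that phosphatase complex, fell, with changes of -0.56 (SE 0.10) and -0.85 (SE 0.10). The gene that rose was SCAF8, named after its value was seen, a factor that restrains early polyadenylation, at 0.35 (SE 0.11, adjusted p = 0.0403) in mutant and 0.21 (SE 0.11, adjusted p = 0.311) in wild-type cells.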

How the data were processed

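The deposited table gives raw counts of reads for each sgRNA and library, not normalized by the authors. Per the file headers, trimming kept bases 1 to 39 before matching to a CRISPRi sgRNA library. The tool that counted reads is not stated in the sources used. Positions in the sgRNA names served only for distances between sgRNAs.

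Counts of P1 or P1P2 sgRNAs with a mean of at least 20 were summed per gene (at least 3 sgRNAs), normalized by TMM and tested with edgeR 4.0.16 (glmQLFit, glmQLFTest) in R 4.3.3, 1 mean per group over 8 libraries, adjusted by Benjamini-Hochberg over 17547 genes (threshold 0.05). Single sgRNAs, over 104881 with the minimum count, and second-promoter sets were tested likewise. The SE came from the change and its F statistic. DESeq2 1.42.0, limma 3.58.1 (prior count 2), other scalings, filters, blocks and left-out libraries were alternatives. The code was tested on simulated data.

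Members, lists and tests were chosen with earlier results of these data known. Every member was named. Values per library were given for the 2 genes of each role with the smallest wild-type p, the 3 with the smallest p in the difference, and 4 related pairs. Up to 3 genes of each other list were named by smallest p in either line. PPP2CA, C7orf26 and DDX26B complete their list, SLBP, LSM11 and ZNF473 complete that for histone mRNAs, and neighbours within 1 kb were all named. Molecules were not tagged before PCR, so reads can share an origin.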

Additional observations from a re-analysis of the deposited data

How the results depend on the processing

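The number of the 35 genes called lower stayed within 1.5 times of 18 in each line, from 18 to 22 in wild-type and from 18 to 22 in mutant cells over the settings that kept all libraries, and the number lower in the difference was 0 in all 18. Leaving out each library gave 13 to 19 lower and 0 to 1 higher in wild-type cells, 15 to 20 lower and 1 to 1 higher in mutant cells, and 0 to 0 lower and 0 to 1 higher in the difference. With all libraries kept, the share of all genes called lower was 8.7% to 11.5% in wild-type and 8.53% to 10.9% in mutant cells. That share also moved with the library left out, and was lowest without a day 0 library of the line tested. The lower member counts therefore do not concern the members alone. The count of genes higher in wild-type cells was 0 and became 1 in DESeq2 (INTS6). The count higher in the difference was 0 and became 1 in DESeq2 and 1 without the most abundant sgRNA (NABP2 in each). With limma on sgRNA means (log2 CPM), 2 values passed as lower although the summed value was positive, CLP1 in wild-type cells (-0.45, adjusted p = 0.045) and INTS9 in mutant cells (-1.13, adjusted p = 0.000244). Others changed sign without passing, among them the difference of SYMPK (-0.04 summed and 1.03 by limma, adjusted p = 0.409). Summing weights the sgRNAs by their counts and the mean does not.

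The same replicate numbers occur in each group, and deviations of same-numbered libraries correlated at -0.0068 to 0.0451. The highest were those of day 0 with day 9 within a line, 0.0451 in mutant and 0.0177 in wild-type cells. Noise of single libraries lowers such values, so they cannot exclude that same-numbered libraries are pairs. The main test did not pair them. With the replicate number as a block, 18 genes were lower in wild-type and 19 in mutant cells, CLP1 (adjusted p = 0.0478) being added, and 0 in the difference. Single-gene values kept their direction and side of the threshold in 617 of 665 wild-type, 620 of 665 mutant and 567 of 630 difference comparisons. Beyond the changes given above, leaving out 1 library let PCF11 pass in mutant cells without wild-type day 9 replicate 1 (-0.34, adjusted p = 0.0245) or 2 (-0.34, adjusted p = 0.0226), PABPN1 without mutant day 9 replicate 2 (-0.51, adjusted p = 0.0373), RBBP6 without mutant day 9 replicate 1 (-0.38, adjusted p = 0.0457) and INTS7 without mutant day 9 replicate 2 (-0.43, adjusted p = 0.0425). Also testing genes whose sgRNA names give a transcript, a choice made after seeing the data, left 18 lower in each line. Where a setting changed a call and no reason is given, the cause was not tested. Groups of 2 libraries limit the precision.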
